A study of Mus musculus with 5 samples.

Results

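The AP-1 and EGR immediate-early factors were followed here through 10 mouse genes, Fos, Fosb, Fosl1, Fosl2, Jun, Junb, Jund, Egr1, Egr2 and Egr3, in B16F1 cells, a mouse melanoma line. Members were found as the array probes whose RefSeq accession belongs to 1 of these genes, which gave 16 of the 56595 probes on each array and 10 of 22907 genes that could be named. The 5 arrays stood for Tmsb4x KO clone 1 and clone 2, both given TGF-β1, then for wild-type B16F1 cells given CCG1423 on top of TGF-β1, given TGF-β1 alone, or given vehicle. TGF-β1 was used at 10 ng/ml and CCG1423, an inhibitor of the MRTF coactivators of SRF, at 10 µM, both over 2 days, in medium with 10% foetal bovine serum. No duration is recorded for the vehicle array. The treatment label of the CCG1423 array names that compound alone, while its title and protocol name both agents. Tmsb4x encodes thymosin β4, which binds actin monomers. Each wild-type condition had 1 array and the knockout 2, 1 from each clone, so single-array differences carry no test and the clones give the only spread within a group. The labels do not say how the clones were edited, and the design text calls them knockdown cells.

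Tmsb4x, the targeted gene, had a log2 level of 5.44 in clone 1 and 4.28 in clone 2, against 6.79 with CCG1423, 7.12 with TGF-β1 alone and 5.05 with vehicle in wild-type cells. The clones lay below wild-type cells given TGF-β1 (log2 difference -2.26, SE 0.46, limma adjusted p = 0.116), a difference that did not pass the threshold, and clone 1 lay above the vehicle level. The signal was well above background in both clones, and since the files do not place the probe relative to the edit, it does not check the knockout itself. A level here is the log2 of the processed signal minus the 75th percentile of that array, and it compares the same probe between arrays, not different probes. The percentage of probes well above background ran between 48.2% and 53.8%, and the lowest signal so called was 26.0 in clone 2 and 13.3 to 15.5 on the other arrays. All 7 melanocyte markers, among them Pmel, Mlana and Tyr, were well above background on all 5 arrays, and their summed signal over the 75th percentile was 2658 and 2691 in the clones, 1750 with CCG1423, 2324 with TGF-β1 and 2234 with vehicle. The sum follows its brightest genes. Tyr, a small part of it, was 3.28-fold lower with TGF-β1 than with vehicle and 2.45-fold higher in clone 1 than in clone 2. The other markers differed less than 2-fold in these comparisons. The fibroblast, epithelial and endothelial marker lists had 0 genes measured on every array, but some were measured on part of them. Pecam1, an endothelial marker, was well above background on 4 arrays, and the epithelial markers Krt5 and Krt14 on 3 each. Krt14 was 3.66-fold higher in clone 2 than in clone 1. The other epithelial and endothelial markers listed were not well above background on any array. The fibroblast sum was 0.0798 and 0.0703 in the clones, 0.0664 with CCG1423, 0.0708 with TGF-β1 and 0.345 with vehicle, where Lum, which encodes lumican, was above background and at least 6.46-fold over its level with TGF-β1. Dcn and Pdgfra were not well above background on any of the 5. Of 4 immune markers Cd68 and Cd3e were. The same sum for the immune list was 5.54 and 6.47 in the clones, 10.9 with CCG1423, 4.30 with TGF-β1 and 5.48 with vehicle, with Ptprc and Adgre1 not well above background anywhere. Cd68 was 2.82-fold higher with CCG1423 than with TGF-β1 alone. The part of these shifts in the members' values was not tested. In whole cultures, fewer cells carrying a transcript and less of it per cell cannot be told apart.

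Proteins of the FOS family pair with those of the JUN family through a leucine zipper and form AP-1, a transcription factor that binds the element TGANTCA and the related TGACNTCA. EGR proteins are zinc-finger transcription factors that bind GC-rich sites and are held in check by NAB corepressors. Many members are immediate-early genes: serum and growth factors induce Fos and Egr1, for example, within minutes through MAP kinases, which act on TCF factors bound with SRF at the CArG box, and such transcripts are short-lived. Fosl1 and Fosl2 follow with a delay. SRF is also the partner of the MRTFs, and SMAD proteins activated by TGF-β can act together with AP-1. At 2 days the arrays with TGF-β1 report a late level, not the first wave of induction.

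The promoter windows of the members show which of these elements lie next to the gene start. RefSeq windows of 300 bases (250 before and 50 after the start, GRCm38.p6) were searched for 7 of the 10 members, 11 windows in all. Windows of Egr1, Egr3 and Fosl1 are not reported here. Both strands were searched for TGANTCA, TGACNTCA, the EGR site GCGNGGGCG, the SMAD palindrome GTCTAGAC and the CArG box, and a match is a description of letters, not of a site in use. The CArG box lay in 4 overlapping or neighbouring windows of Egr2 and in no window of the other 6, against 1.63% of all 32851 windows. The overlapping Egr2 windows share 1 match, CCATATATGG, and the neighbouring window holds CCTTTTTTGG. In the Egr2 window shown the box runs between positions -72 and -63 from the start. Jun held TGACATCA between -45 and -38, a form of TGACNTCA, which 8.83% of all windows hold. Fosb and Fosl2 each held an EGR site, between -50 and -42 and between -79 and -71, against 5.55% of all windows. TGANTCA (7.81% of all windows) and the SMAD palindrome (0.213%) had no match in these 11 windows, and Fos, Junb and Jund had no match of any kind. Sequence more than 250 bases before a start was not searched, so a missing match holds for the window only. Shown 5′ to 3′ with matches in capitals are 1 Egr2 window, for the CArG box, those of Jun, Fosb and Fosl2, for their matches, and that of Junb, the member that differed most between arrays among those measured on all 5.
Egr2 chr10:67537619-67537918, plus strand: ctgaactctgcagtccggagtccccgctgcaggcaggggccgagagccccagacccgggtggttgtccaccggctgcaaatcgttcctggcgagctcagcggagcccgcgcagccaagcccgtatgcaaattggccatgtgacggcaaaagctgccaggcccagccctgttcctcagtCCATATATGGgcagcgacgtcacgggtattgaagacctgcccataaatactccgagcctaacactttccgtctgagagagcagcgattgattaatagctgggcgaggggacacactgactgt
Jun chr4:95052173-95052472, minus strand: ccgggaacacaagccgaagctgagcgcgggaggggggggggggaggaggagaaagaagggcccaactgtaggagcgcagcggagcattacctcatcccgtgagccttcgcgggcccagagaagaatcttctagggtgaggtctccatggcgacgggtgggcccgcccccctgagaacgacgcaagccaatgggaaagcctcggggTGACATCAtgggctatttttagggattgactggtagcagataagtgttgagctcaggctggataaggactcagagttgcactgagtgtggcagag
Fosb chr7:19309996-19310295, minus strand: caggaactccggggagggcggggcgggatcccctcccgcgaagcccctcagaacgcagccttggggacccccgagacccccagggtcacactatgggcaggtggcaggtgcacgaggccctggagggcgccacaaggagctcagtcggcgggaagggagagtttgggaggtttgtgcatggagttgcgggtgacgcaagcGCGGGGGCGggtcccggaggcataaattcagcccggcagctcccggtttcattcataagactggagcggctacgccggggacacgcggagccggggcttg
Fosl2 chr5:32136222-32136521, plus strand: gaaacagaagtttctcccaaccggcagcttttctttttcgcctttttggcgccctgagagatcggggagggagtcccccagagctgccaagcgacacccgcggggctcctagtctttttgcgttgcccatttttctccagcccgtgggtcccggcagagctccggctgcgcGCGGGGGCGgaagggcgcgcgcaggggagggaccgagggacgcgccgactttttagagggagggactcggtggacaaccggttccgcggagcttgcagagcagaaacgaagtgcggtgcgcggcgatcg
Junb chr8:84978699-84978998, minus strand: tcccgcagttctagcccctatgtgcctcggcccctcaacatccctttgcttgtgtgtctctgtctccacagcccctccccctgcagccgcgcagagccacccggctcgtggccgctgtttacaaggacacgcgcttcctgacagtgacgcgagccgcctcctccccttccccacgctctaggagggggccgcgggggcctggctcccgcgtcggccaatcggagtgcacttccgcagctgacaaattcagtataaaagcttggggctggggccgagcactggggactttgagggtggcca

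Of the 16 member probes, 9 were well above background on all 5 arrays and covered 6 genes: Fos, Fosb, Fosl2, Jun, Junb and Jund. A further 3 probes, of Egr1, Egr2 and Egr3, were so on some arrays, and 4 probes on none, including the only probe of Fosl1. To enter a comparison, a probe had to be measured above background throughout at least 1 of its sides, and 11 of the 16 entered each comparison with wild-type cells. Where 1 side was not well above background, the fold is a bound, taken against the lowest signal that array called well above background, or against the probe's own signal where that was higher.

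**Figure D1:**
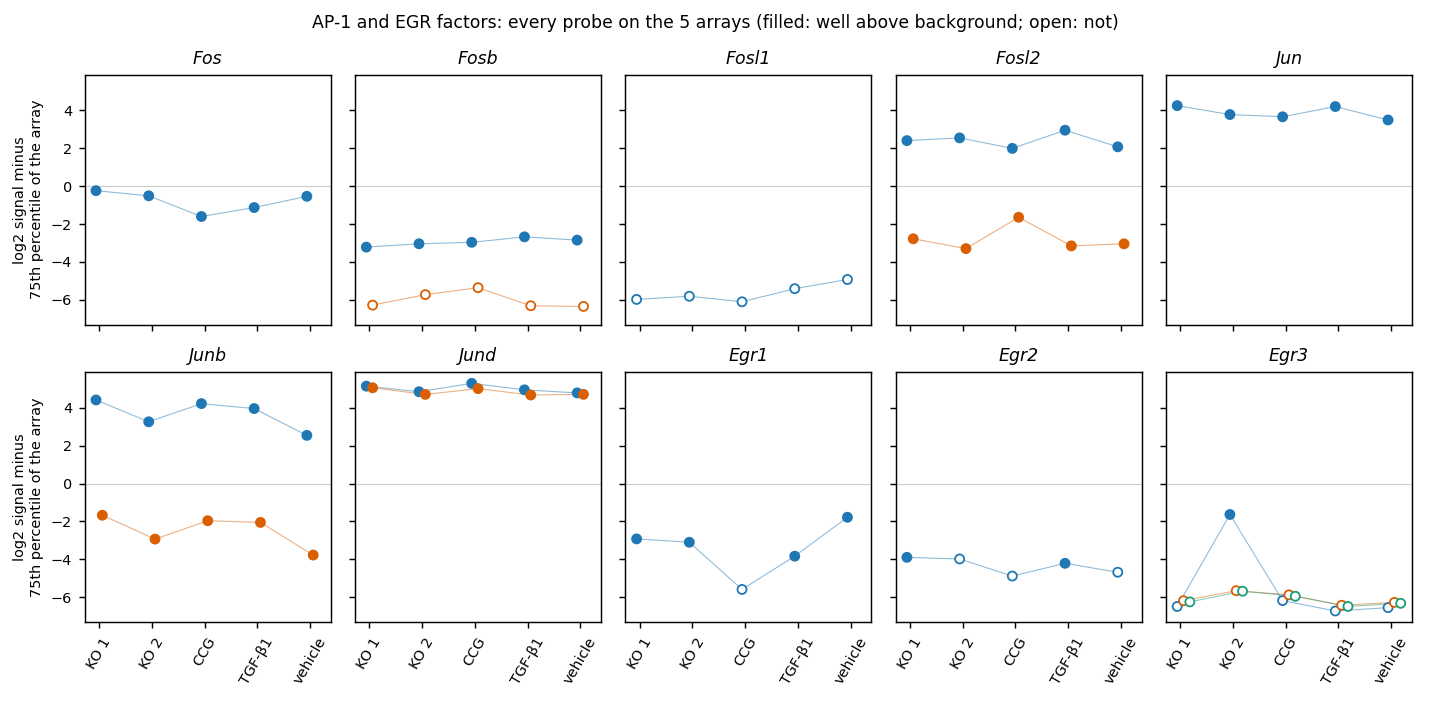
Log2 signal minus the 75th percentile of the array (vertical axis) for every probe of the 10 genes on the 5 arrays (horizontal axis: KO 1 and KO 2, Tmsb4x KO clones with TGF-β1; CCG, wild type with TGF-β1 and CCG1423; TGF-β1 and vehicle, wild type). Each colour is 1 probe of the gene, its points joined for reading only, filled where well above background and open where not. Egr1 ran between -5.58 with CCG1423 and -1.78 with vehicle, and 1 of 3 Egr3 probes stood out in clone 2 alone.

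Among the FOS family, Fos, the founding AP-1 subunit, was higher in both knockout clones than in wild-type cells under TGF-β1. Its probe A_55_P2910184 had log2 levels of -0.24 in clone 1, -0.51 in clone 2, -1.60 with CCG1423, -1.13 with TGF-β1 and -0.54 with vehicle. Both clones thus lay near the vehicle level, and the arrays with TGF-β1 in wild-type cells lay lowest, with CCG1423 at the bottom. The clones were 1.85-fold and 1.54-fold above wild type under TGF-β1 (log2 difference 0.75, SE 0.32; clones -0.38 ± 0.19, SD, n = 2), and in limma the adjusted p was 0.847. With CCG1423, Fos was 1.39-fold below TGF-β1 alone and 2.09-fold below vehicle, and with TGF-β1 it was 1.51-fold below vehicle. Each of these differences is larger than the 1.21-fold difference between the clones, which is 1 pair of arrays.

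Fosb, an AP-1 subunit linked to lasting stimulation, varied little. Probe A_55_P2113051 had log2 levels of -3.22 in clone 1, -3.04 in clone 2, -2.96 with CCG1423, -2.68 with TGF-β1 and -2.85 with vehicle, all dim. These levels span 0.54, and the clones' difference from wild type (-0.45, SE 0.45, limma adjusted p = 1.00) did not pass. The second Fosb probe stayed below that call on all 5 arrays. Fosl1, which encodes FRA-1 and is often high in invasive tumour cells, was not well above background anywhere; its signal ran from 3.35 ± 3.37 with CCG1423 to 9.85 ± 3.51 with vehicle, each with the scanner's own error.

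Fosl2 encodes FRA-2, a subunit lacking the transactivation domain of FOS, and its probes disagreed under CCG1423. The bright probe A_55_P2803815 had log2 levels of 2.40 in clone 1, 2.55 in clone 2, 1.99 with CCG1423, 2.95 with TGF-β1 and 2.07 with vehicle. It was highest with TGF-β1 in wild-type cells, 1.84-fold above vehicle, and with CCG1423 it was 1.94-fold below TGF-β1 alone, close to the vehicle level. Both clones lay below wild type under TGF-β1, 1.46-fold and 1.32-fold (log2 difference -0.48, SE 0.28, limma adjusted p = 1.00). The dim probe A_51_P507242 had log2 levels of -2.78 in clone 1, -3.30 in clone 2, -1.64 with CCG1423, -3.15 with TGF-β1 and -3.04 with vehicle. On this probe CCG1423 stood alone as the highest array, 2.84-fold above TGF-β1 and 2.64-fold above vehicle, while the other 4 arrays lay within 0.52 of each other. With normexp background correction, which draws dim signals together, the difference from TGF-β1 was 0.75 on the log2 scale. The probes carry the same RefSeq accession, and which part of the transcript each reads is not given in the files.

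Among the JUN family, Junb differed most. JUNB is an AP-1 subunit that can restrain JUN and whose gene is a direct SMAD target. Its bright probe A_51_P159194 had log2 levels of 4.41 in clone 1, 3.26 in clone 2, 4.22 with CCG1423, 3.96 with TGF-β1 and 2.54 with vehicle. All 4 arrays with TGF-β1 lay above the vehicle array: clone 1 by 3.65-fold, clone 2 by 1.64-fold, the CCG1423 array by 3.20-fold and the TGF-β1 array by 2.66-fold. The dim probe A_55_P2011106 gave -1.67 in clone 1, -2.93 in clone 2, -1.96 with CCG1423, -2.05 with TGF-β1 and -3.77 with vehicle, in the same order of arrays. On it TGF-β1 was 3.30-fold above vehicle, a log2 difference of 1.72 that became 0.76 with normexp background correction. CCG1423 differed from TGF-β1 alone by 0.26 and 0.09 on the log2 scale, less than the spread of the clones. The clones lay on either side of wild type under TGF-β1, by 0.45 and -0.70 on the bright probe, so that the mean difference of -0.12 (SE 0.45, limma adjusted p = 1.00; clones 3.83 ± 0.81, SD, n = 2) describes neither. The clones differed from each other 2.22-fold and 2.39-fold on the 2 probes.

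Jun is the best-known JUN subunit. Probe A_55_P2158990 had log2 levels of 4.25 in clone 1, 3.78 in clone 2, 3.66 with CCG1423, 4.20 with TGF-β1 and 3.49 with vehicle. It was 1.63-fold above vehicle with TGF-β1 and 1.45-fold below TGF-β1 with CCG1423, against a difference of 1.39-fold between the clones. Clone 1 stood at the wild-type level under TGF-β1 (0.05 on the log2 scale) and clone 2 below it (-0.42; limma adjusted p = 1.00 for both clones together). Jund, which is expressed in most cells at a steady level and responds little to serum, was the flattest member: its probes spanned 0.50 and 0.38 on the log2 scale over the 5 arrays. Probe A_55_P2892246 had log2 levels of 5.14 in clone 1, 4.85 in clone 2, 5.29 with CCG1423, 4.94 with TGF-β1 and 4.78 with vehicle.

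Among the members, the widest difference between TGF-β1 and vehicle was that of Egr1, the most widely studied EGR factor and a classic target of SRF and its TCF partners. Its only probe, A_51_P367866, gave signals of 37.1 ± 5.32 in clone 1, 38.5 ± 7.63 in clone 2, 4.79 ± 3.97 with CCG1423, 20.7 ± 3.99 with TGF-β1 and 87.3 ± 9.59 with vehicle, where the error is the scanner software's estimate for the spot. The vehicle array was highest, both clones were intermediate, wild-type cells with TGF-β1 were lower, and with CCG1423 the probe was not well above background. On the log2 scale the levels were -2.92 in clone 1, -3.10 in clone 2, -5.58 with CCG1423, -3.83 with TGF-β1 and -1.78 with vehicle. TGF-β1 was 4.15-fold below vehicle. With CCG1423 the transcript was at least 4.42-fold below vehicle and at least 1.06-fold below TGF-β1 alone; the measured difference from TGF-β1 alone was -1.75 on the log2 scale, but the dim signal leaves only that bound. With normexp background correction the log2 differences were 0.01 between CCG1423 and TGF-β1 and -0.75 between TGF-β1 and vehicle. Between the clones' mean and wild type under TGF-β1 it was 0.18. The clones lay 1.88-fold and 1.66-fold above wild type under TGF-β1 (log2 difference 0.82, SE 0.51, limma adjusted p = 1.00; clones -3.01 ± 0.13, SD, n = 2) and 2.21-fold and 2.50-fold below vehicle. Both Egr1 and Fos thus had the clones above wild type under TGF-β1, and neither passed the test. For Fos, wild type under TGF-β1 in turn lay above the CCG1423 array. The Fos log2 difference of CCG1423 from TGF-β1 alone was -0.47, and -0.20 with normexp. For Egr1 that step rests on the 1.06-fold bound and was absent with normexp.

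Egr2, a zinc-finger factor needed for myelination by Schwann cells, stayed at the edge of detection. Probe A_51_P173043 gave signals of 18.9 ± 4.03 in clone 1, 20.9 ± 6.46 in clone 2, 7.80 ± 3.69 with CCG1423, 15.9 ± 3.56 with TGF-β1 and 11.7 ± 3.80 with vehicle. It was well above background in clone 1 and with TGF-β1 in wild-type cells, not in clone 2, whose lowest signal so called was higher, nor with CCG1423 or vehicle. TGF-β1 was at least 1.05-fold above vehicle, and no fold could be given for CCG1423. The clones' log2 difference from wild type was 0.27 (SE 0.65, limma adjusted p = 1.00).

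Egr3, a relative induced downstream of several growth signals, gave a signal in 1 place. Probe A_51_P437198 had 106 ± 11.9 in clone 2, against 3.14 ± 3.15 in clone 1, 3.18 ± 3.19 with CCG1423, 2.79 ± 2.80 with TGF-β1 and 3.21 ± 3.22 with vehicle. Clone 2 was at least 5.94-fold above clone 1 and at least 7.17-fold above wild type under TGF-β1. With normexp background correction the clones differed by -1.41 on the log2 scale (clone 1 minus clone 2). The other 2 Egr3 probes, A_52_P440836 and A_55_P2787986, were not well above background on any array and had 6.56 ± 6.57 and 6.43 ± 6.44 in clone 2. They are listed under another RefSeq transcript of the gene. The clone 2 signal therefore rests on 1 spot of 1 probe in 1 culture. Of all probes, 1.29% were well above background in clone 2 alone.

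**Figure D2:**
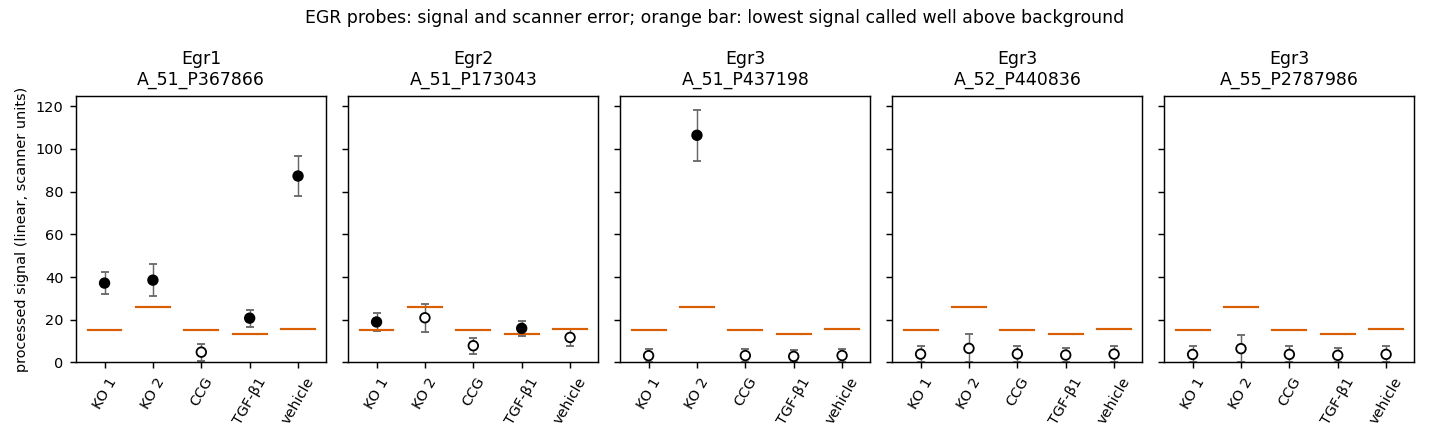
Processed signal in linear scanner units (vertical axis, from 0) of the 5 EGR probes on the 5 arrays (KO 1 and KO 2, Tmsb4x KO clones with TGF-β1; CCG, wild type with TGF-β1 and CCG1423; TGF-β1 and vehicle, wild type). Bars are the scanner's error for the spot, orange lines the lowest signal called well above background on that array, and open points spots not well above background. Egr1 was at 37.1 and 38.5 in the clones against 20.7 in wild-type cells with TGF-β1, and the Egr3 signal of 106 in clone 2 had no counterpart on the other Egr3 probes.

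Counted over the members, none passed the test of the knockout. Of the 11 member probes tested in limma, 0 passed an adjusted p of 0.05, with 1 (Fos) at an unadjusted p under 0.05, against 146 of 30561 probes (0.478%) that passed and 1730 (5.66%) at the unadjusted level. At least 2-fold the same way in both clones were 0 of the 11, against 2.31% of all probes. Their median log2 difference was 0.05, against -0.01 over all probes. With 1 residual degree of freedom, the fit assumes that the single wild-type array varies like the clones.

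With CCG1423 added to TGF-β1, 1 of 11 member probes was at least 2-fold different, the dim Fosl2 probe on the higher side, against 13.4% of all probes, 6.94% on that side. The median over the 11 was -0.29, against -0.01 over all probes. TGF-β1 against vehicle gave 3 of 11 at least 2-fold, 2 higher (both Junb probes) and 1 lower (Egr1), against 8.09% of all probes, 4.56% higher and 3.53% lower, with a median of 0.17 against -0.05. Between the clones, both given TGF-β1, 3 of 12 member probes were 2-fold or more apart, both Junb probes and the Egr3 probe, against 8% of all probes. With the deposited value table both Junb probes were under 2-fold (0.83 and 0.94 on the log2 scale) and the count was 1, against 10.4% of all probes. Both Junb probes read 1 gene and are not separate observations. The comparisons with CCG1423, with the knockout and with vehicle all use the same wild-type TGF-β1 array, so a low or high value there moves all 3.

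**Figure D3:**
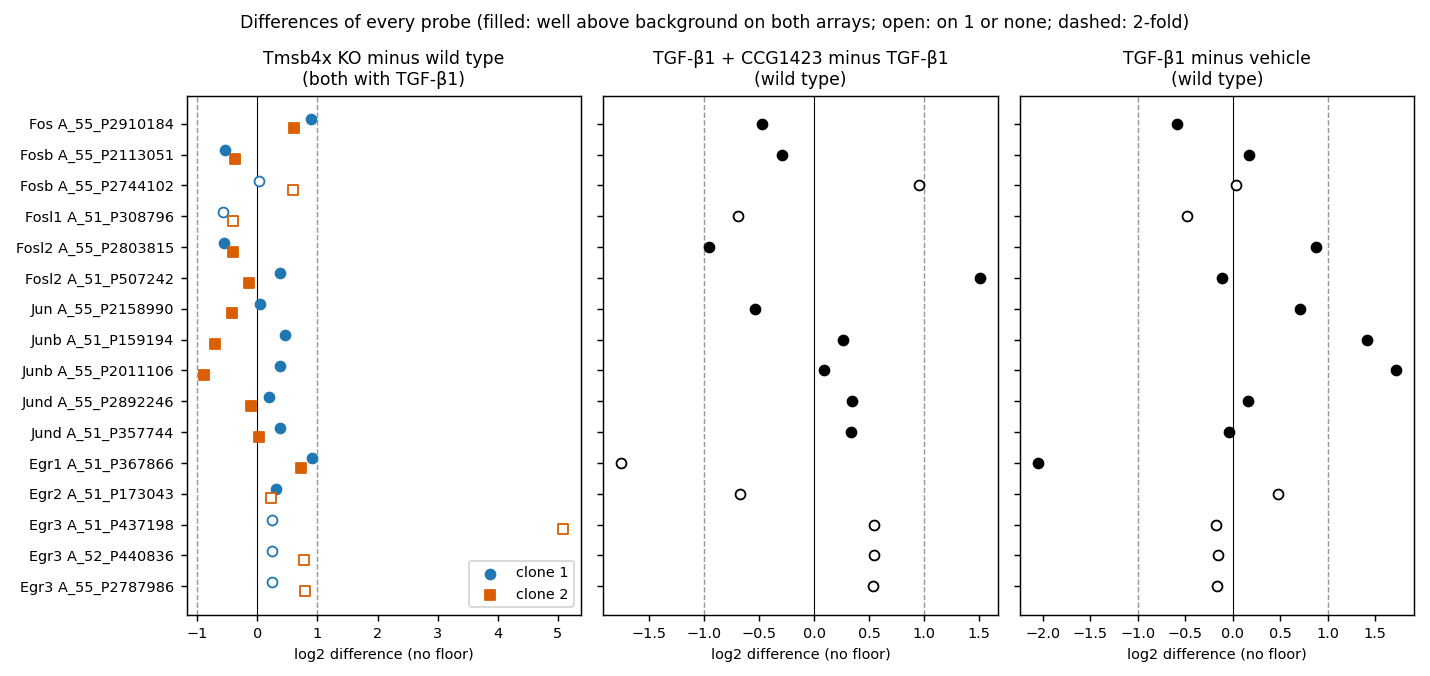
Log2 differences without the background floor (horizontal axes, each with its own range) of the 16 member probes (rows) for the knockout clones against wild type under TGF-β1, for CCG1423 with TGF-β1 against TGF-β1 and for TGF-β1 against vehicle. Filled points were well above background on both arrays compared, open points on 1 or none, and dashed lines mark 2-fold. Among probes well above background in both clones and in wild type under TGF-β1, both clones lie above wild type for Fos, Egr1 and Jund A_51_P357744 (0.38 and 0.03). Both lie below it for the brighter probes of Fosb and Fosl2. Egr2 also lies above wild type in both, but was not well above background in clone 2. The clones lie on opposite sides for Junb, and the 2 Fosl2 probes lie at -0.96 and 1.51 with CCG1423.

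The genes whose levels over the 5 arrays were most like those of Junb, the member with the widest range among those measured on every array (1.87 on the log2 scale), were Nox4, an NADPH oxidase, Mmp28, a matrix metalloproteinase, and Fstl1, a secreted follistatin-like glycoprotein. Their root-mean-square distances from Junb, after each gene was centred on its own mean, were 0.13, 0.15 and 0.16 on the log2 scale over 5 arrays, the smallest of 12057 genes. Nox4, for example, had log2 levels of -2.66 in clone 1, -3.63 in clone 2, -2.73 with CCG1423, -3.16 with TGF-β1 and -4.21 with vehicle.

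Genes around these factors were described by lists, each gene by its probe with the highest mean level, and read against 2.28% of genes at least 2-fold different the same way in both clones, 13% with CCG1423 and 8.21% with TGF-β1. In the knockout comparison 0 of the list genes passed limma at an adjusted p of 0.05. Of 10 bZIP partners of AP-1 that entered, 1 differed in both clones, Maf, a large MAF factor, higher by 1.25 and 1.55 on the log2 scale (adjusted p = 0.523). With CCG1423, Atf3, a stress-induced ATF factor, was 3.44-fold higher, while Maff, a small MAF factor, was 2.62-fold lower. With TGF-β1 against vehicle, Batf, a lymphoid AP-1 partner, was 2.72-fold lower. Of the EGR corepressors and Egr4, 2 of 3 listed genes could be read: Egr4, the remaining EGR factor, was 2.58-fold lower with CCG1423, and Nab2, an EGR corepressor that EGR1 induces, differed by 0.17 there and by -0.49 with TGF-β1 on the log2 scale.

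Other immediate-early genes did not move as one block. With CCG1423, 3 of 20 were at least 2-fold higher and 2 lower, with a median log2 difference of 0.33 over the 19 measured on both arrays, against -0.03 over all genes so measured. Klf4, a Krüppel-like factor, was 5.04-fold and Atf3 3.44-fold higher, and Arc, a neuronal activity gene, at least 6.91-fold and Maff 2.62-fold lower. With TGF-β1 against vehicle, 4 of 20 were higher and 1 lower, with a median of -0.19 over the 19 measured on both arrays, against -0.05 over all genes so measured. Arc was at least 8.84-fold and Gadd45b, a stress and SMAD-responsive gene, 2.79-fold higher, while Myc, a growth-promoting transcription factor, lay lower by 1.07 on the log2 scale. Arc passed background only in wild-type cells given TGF-β1 alone, so its difference in the clones (at least 6.97-fold lower, adjusted p = 0.0600) rests on that array. Of the 19 other genes, 0 differed 2-fold in both clones, and their median was 0.05, against 0.02 over all genes measured on the same 3 arrays.

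Upstream, all 6 genes of the TCF, SRF and MRTF list lay below wild type in the knockout clones' mean, with 0 at 2-fold in both clones. Their median was -0.31, against -0.01 over all genes. The mean differences ran from -0.12 for Elk3, with clone 2 at -0.01, to -0.44 for Mrtfa. Over all probes well above background in both clones, the median absolute difference between the clones was 0.27. All 6 differences use the same wild-type array, and the share of all genes below wild type was not counted. Elk3, a TCF factor, was 2.14-fold lower when CCG1423 was added to TGF-β1, and TGF-β1 cells had 2.59-fold more of it than vehicle cells. Of 12 MAP kinases and their activators, 1 differed 2-fold with CCG1423, Mapk14, which encodes p38α, lower by 1.11 on the log2 scale. The list's median there was -0.48, against -0.05 over all genes that entered, with 7 of the 12 below 0 and 5 above. With TGF-β1 or in both clones, 0 genes of the list differed 2-fold. Among MAPK phosphatases and feedback inhibitors, Dusp10, a phosphatase of JNK and p38, was 2.28-fold higher and Dusp6, an ERK phosphatase, 2.09-fold lower with CCG1423. With TGF-β1, Dusp2 was 2.15-fold and Spry4 at least 2.04-fold lower than with vehicle, and 0 of 11 differed in both clones.

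Genes known as AP-1 targets were mixed. With TGF-β1 against vehicle, 4 of 11 were at least 2-fold lower and 1 higher, but 3 of the lower ones entered through the vehicle array alone and the higher one through the TGF-β1 array alone. Over the 7 genes well above background on both arrays, 1 (Ccnd1, lower) reached 2-fold, and the median log2 difference was 0.08, against -0.05 over all genes so measured. Plau, the urokinase gene, was at least 20.6-fold and Mmp3, a stromelysin, at least 2.17-fold lower, and these with Spp1 are the 3 that only the vehicle array measured, the array on which Lum was also above background. The part of the cells behind that marker was not tested. Il6 was at least 14.2-fold higher. With CCG1423, Plaur, the urokinase receptor, lay higher by 1.30 and Ccnd1, cyclin D1, lower by 1.02 on the log2 scale, the 2 of 8 that reached 2-fold. Below wild type lay 7 of 8 in clone 1 and 6 of 8 in clone 2, with Il6 at -1.73 and -1.64 (adjusted p = 0.163) as the gene at 2-fold in both. The median of the 8 was -0.26, against 0.02 over all genes well above background on the clone and wild-type TGF-β1 arrays. All 8 differences use the same wild-type array, and the share of all genes below wild type was not counted. Genes known as EGR1 targets had 3 of 8 at least 2-fold higher with TGF-β1, where Egr1 itself was lower. Among them, Pdgfb, a platelet-derived growth factor chain, was 6.64-fold and F3, tissue factor, 2.68-fold higher. With CCG1423 Tgfb1 alone of 9 passed 2-fold (at least 2.45-fold higher, above background on that array alone), and in both clones 0 of 8 did.

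**Figure D4:**
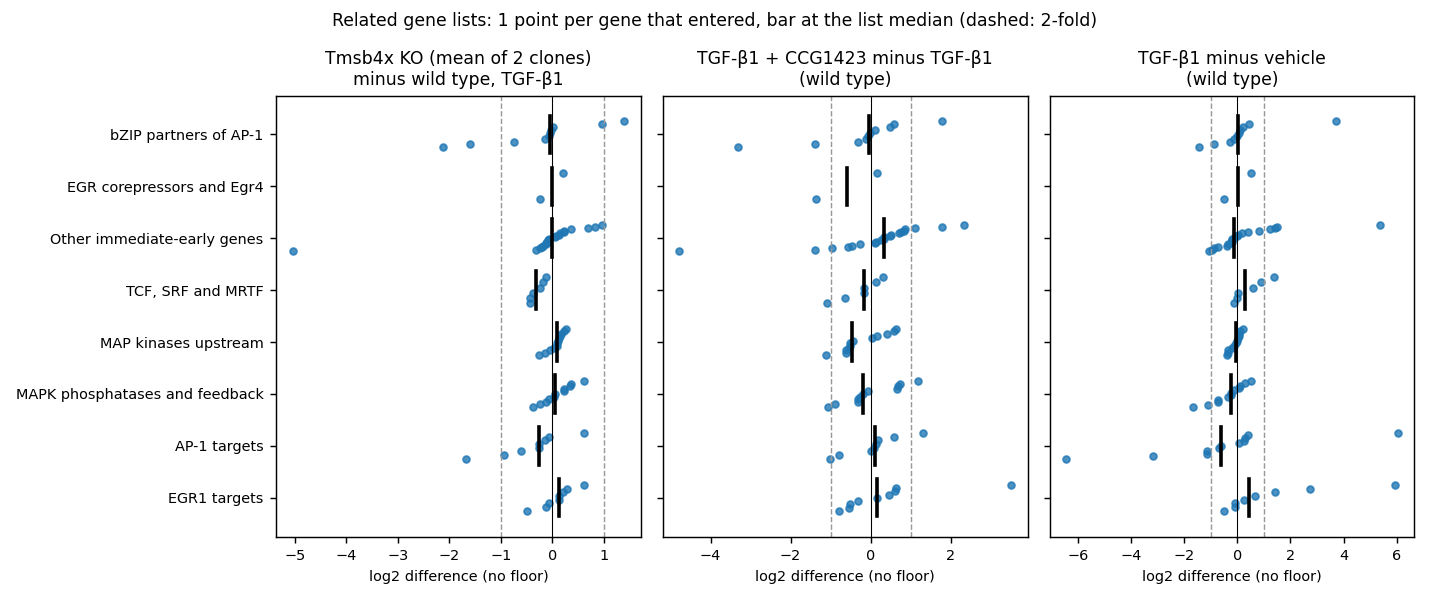
Log2 differences without the background floor (horizontal axes, each with its own range) of the genes of 8 related lists (rows), 1 point per gene that entered, for the mean of the 2 knockout clones against wild type under TGF-β1, for CCG1423 with TGF-β1 against TGF-β1 and for TGF-β1 against vehicle. Black bars mark list medians and dashed lines 2-fold. Single genes reach far beyond the list medians, and the AP-1 targets' median of -0.62 for TGF-β1 against vehicle includes 3 genes measured with vehicle alone and is 0.08 over the 7 measured on both arrays.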

How the data were processed

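RNA of 5 cultures was measured on 5 Agilent 1-colour (Cy3) arrays, 1 array each, in 4 groups taken from the labels. Whether cultures were grown separately is not given in the sources used here. The only replicate spread behind the p-values is that between the 2 clones, which holds clone and technical differences together. The eBayes step draws each probe's spread towards a trend over all probes that entered, so an SE does not show that probe's clone spread alone. Egr2, for example, had a clone SD of 0.06 and an SE of 0.65. For Junb's bright probe these were 0.81 and 0.45. No wild-type condition was repeated. The processed-signal intensity and its error came from Agilent Feature Extraction 12.0.3.1, per the file headers, which subtracts background within an array; the deposited values were not normalized between arrays. The flags for outliers, saturation and signal well above background, which are other values of 0 or 1, were deposited as that software set them. A value table, also deposited, holds the same intensity times 1 constant per array. All 5 arrays share 1 slide and 1 scan.

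Control spots (3671 per array) and outlier spots (107 to 141) were left out; no spot was saturated. Spots of 1 probe were averaged as log2 intensity, less the 75th percentile of the array. Of 56595 probes, 32988 were named through RefSeq accessions (GRCm38.p6 table). For the knockout, limma 3.58.1 (R 4.3.3; lmFit, eBayes with trend) was fitted on all arrays and the 30561 probes that entered, p-values were adjusted by Benjamini-Hochberg and read at 0.05, and the pooled spread has 1 residual degree of freedom. Other comparisons were counted at 2-fold. The methods were tested on simulated data. Python 3.11.15, numpy 2.4.6 and pandas 2.3.3 did the rest. The number of arrays limits the precision.

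The text names every member, Tmsb4x, up to 2 highest and 2 lowest genes of each list at 2-fold, and 3 genes nearest to 1 member; Nab2, Spp1, F3 and Nox4's levels were chosen after values were seen. Some list genes that the rule would name are not reported here. The members and lists were chosen with earlier results of these data known. The normexp alternative used pixel medians, as the files hold no mean signal.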

Additional observations from a re-analysis of the deposited data

How the results depend on the processing

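Member probes at 2-fold stayed at 3 for TGF-β1 against vehicle under every alternative but normexp background correction (1, the bright Junb probe; its offset of 50 shrinks dim signals) and 1 probe per gene (2). For CCG1423 against TGF-β1 the count of 1 became 2 with the deposited value table (the bright Fosl2 probe at -1.09) and 2 without a filter on dim probes (Egr1 at -1.75), and 0 with 1 probe per gene. Under normexp the count stayed 1, but the probe was the bright Fosl2 probe (-1.04), not the dim one (0.75), and the Egr1 difference was 0.01. Between the clones the count of 3 was 1 with the value table (the Egr3 probe) and 2 with normexp, with probes well above background throughout or with 1 probe per gene. In both clones it was 0 under every alternative that keeps both; without 1 clone it ranged from 0 to 1 (the Egr3 probe, without clone 1), and Junb's bright probe ranged from -0.70 to 0.45. No member passed limma in any setting; for Fos the adjusted p ranged from 0.798 to 1.00.

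Over all probes, limma's 146 calls became 0 with quantile normalization (1794 at an unadjusted p under 0.05), 276 with normexp, 526 with the value table, 702 without a filter, 8 on probes well above background throughout, 32 with 1 probe per gene and 388 without the trend; the cause was not tested. The share at 2-fold under normexp was 3.46% for TGF-β1, 5.24% for CCG1423, 0.952% in both clones and 3.03% between clones. On probes well above background throughout it was 4.44% for TGF-β1, 0.974% in both clones and 4.36% between clones. Without a filter it was 3.97% in both clones and 12.9% between them, and without 1 clone it ranged from 7.64% to 8.04%. With the value table the median over all probes shifted by 0.10 for TGF-β1, -0.13 for CCG1423, -0.20 for the knockout and -0.32 between clones. Its split of 2-fold probes was 90 higher and 648 lower in the knockout, against 180 and 527, 1724 and 2732 with CCG1423, against 2188 and 2047, and 654 and 2546 for clone 1 against clone 2, compared with 1071 and 1381.

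The slide could not be fitted as a block, since all arrays share it. No paired analysis was possible because the groups compared share fewer than 2 replicate numbers. Dim members (Egr1 with CCG1423, Egr2, Egr3, Fosl1, Fosb's second probe) are limited by signal over background.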
